A study of Homo sapiens with 18 samples.

Results

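Of the 13141 genes measured on Illumina HumanHT-12 V4 arrays in 786-O clear cell renal cancer cells, 52 (0.396%) had a mean log2 signal at least 0.585 above the scramble shRNA control (SCR) in each of 4 comparisons: PBRM1 shRNA and KDM5C shRNA, each in VHL-/- and in VHL+/+ cells. A log2 difference of 0.585 is a 1.5-fold higher signal. The 44 genes described here are those 52 without IGSF3, AKR7A2, AKR7A3, HMGB2, CCND1, GAS6, ARPC4 and AARS, which were left out by name and all met the rule. The genes were selected on these measured differences, so the 4 differences are given below as a description with no test. In the other direction, 28 genes were at least as far below SCR in all 4 comparisons.

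PBRM1 is a subunit of PBAF, a SWI/SNF complex that uses ATP to move nucleosomes, and KDM5C is a demethylase of lysine on histone H3. VHL is the substrate receptor of a ubiquitin ligase that marks the HIF alpha subunits for destruction when oxygen is present. All of these genes are tumour suppressors of clear cell renal cancer, and 786-O, an established line of that cancer, lacks functional VHL. A short hairpin RNA is processed in the cell into a small RNA that directs the degradation of a matching transcript.

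There were 18 arrays in 6 groups of 3: scramble shRNA, PBRM1 shRNA and KDM5C shRNA, each expressed stably in 786-O cells labelled VHL-/- and in 786-O cells labelled VHL+/+, in which VHL has been re-expressed. The cells received no further treatment. On the arrays each target was suppressed with 1 hairpin, so what is common to a hairpin and what follows from its target cannot be told apart. The labels number the replicates 1 to 3 and do not say whether they were separate cultures, so the p-values below measure only the spread between these arrays. Chip 1 carried replicates 1 and 2 of all groups, 12 arrays, and chip 2 carried replicate 3, 6 arrays, and 3130 of 13141 genes (23.8%) differed between the chips in limma. Within groups, arrays correlated across genes at 0.976 to 0.995. The knocked down genes gave little check of the labels: the PBRM1 signal with PBRM1 shRNA differed from SCR by -0.06 in VHL-/- cells and by -0.15 in VHL+/+ cells (SE 0.12), with overlapping arrays, and KDM5C had 0 rows in the table used here. The group names below are therefore those of the labels, with no check of the knockdown from these arrays. Of the kidney and clear cell carcinoma markers, PAX8, VIM, KRT8, CDH6, NNMT and CA12 were brighter than at least 66.8% of genes, KRT18 was at percentile 41.1, and PAX2 had no row. Among markers of other cells, PECAM1, COL1A1 and UMOD were at percentiles 11.1, 17.8 and 8.90, and PTPRC, CD14, CDH5 and PDGFRB had no row.

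Taken one comparison at a time, a difference of at least 0.585 was found for 137 genes (1.04%) with PBRM1 shRNA in VHL-/- cells, for 119 (0.906%) with KDM5C shRNA in VHL-/- cells, and for 100 (0.761%) with either shRNA in VHL+/+ cells. The median difference of the 44 genes was 0.89 with PBRM1 shRNA and 0.82 with KDM5C shRNA in VHL-/- cells, and 0.80 and 0.77 in VHL+/+ cells, where the medians of all genes were within 0.003 of 0 in every comparison. These medians followed from how the genes were picked. Within a background the comparisons of PBRM1 shRNA and KDM5C shRNA used the same 3 SCR arrays, so a gene above SCR with both shRNAs is equally a gene that read low on those 3 arrays. The SCR arrays of the VHL-/- and VHL+/+ cells were different arrays.

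**Figure D1:**
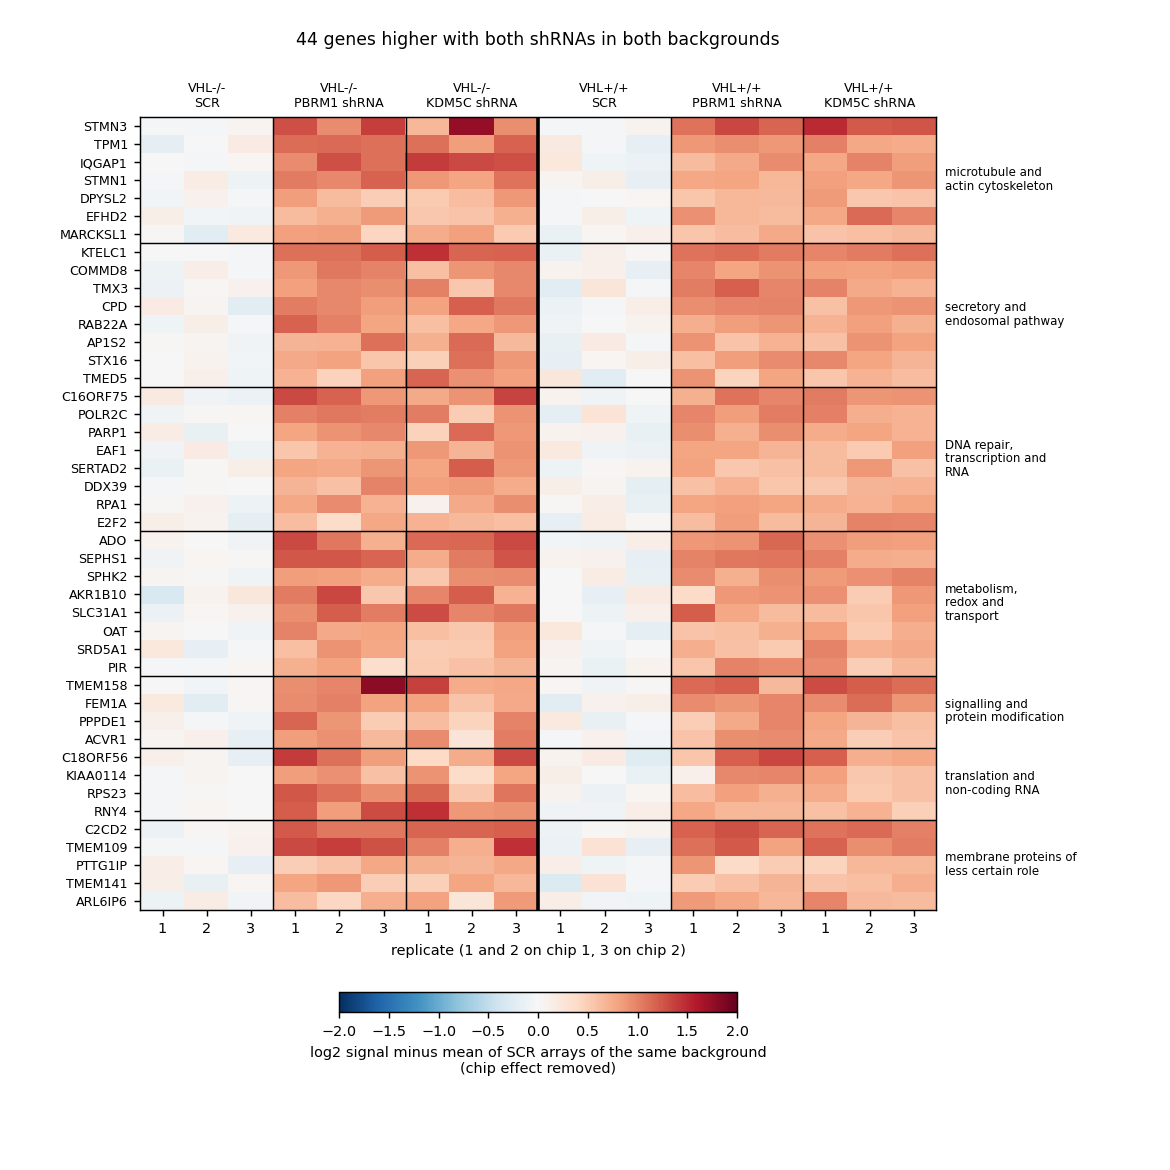
Log2 signal of each of the 44 genes (rows, grouped by role) on each of the 18 arrays (columns), minus the mean of the SCR arrays of the same background, after removal of the chip effect fitted by limma; red is above SCR and blue below. The median over the genes was between 0.75 and 0.93 on every shRNA array and between -0.02 and 0.03 on every SCR array.

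The values of single arrays are given here as a description, since the same arrays chose the genes. With the chip effect removed, all 44 genes were above the SCR mean of their background on each of the 12 arrays with an shRNA against PBRM1 or KDM5C, and the median over the genes ran from 0.75 to 0.93 between those arrays. As deposited, all 6 shRNA arrays were above all 3 SCR arrays for 41 of the 44 genes in VHL-/- cells (background 4.61% of all genes), for 40 in VHL+/+ cells (4.21%) and for 39 in both (1.64%). The exceptions were TMEM158, C18ORF56 and TMEM141 in VHL-/- cells and TMEM158, KIAA0114, DDX39 and TMEM141 in VHL+/+ cells. Because the selection used the same arrays, nothing is read from these counts and shares. With the chip effect removed, KIAA0114 was the 1 gene whose arrays still overlapped.

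Ranked by the lowest of their 4 differences, STMN3, C2CD2, TMEM109 and KTELC1 led the group and were the 4 genes at least 2-fold above SCR (1 on the log2 scale) in all 4 comparisons. STMN3 encodes a stathmin, a protein that binds tubulin dimers and destabilises microtubules. In VHL-/- cells its log2 signal was 7.60, 7.61 and 7.52 on the SCR arrays (replicates 1 to 3), 8.93, 8.59 and 8.85 with PBRM1 shRNA and 8.30, 9.40 and 8.39 with KDM5C shRNA. In VHL+/+ cells it was 8.10, 8.13 and 8.04 with SCR, 9.24, 9.48 and 9.14 with PBRM1 shRNA and 9.64, 9.38 and 9.23 with KDM5C shRNA. Every shRNA array was thus above every SCR array of its background, although replicate 2 of KDM5C shRNA in VHL-/- cells stood well above the other two. The differences of STMN3 were 1.21, 1.12, 1.20 and 1.33 (SE 0.19), given here and below in the order PBRM1 and KDM5C shRNA in VHL-/- cells, then PBRM1 and KDM5C shRNA in VHL+/+ cells, and correspond to folds of 2.31, 2.17, 2.29 and 2.51.

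C2CD2, a membrane protein with a C2 lipid-binding domain, had the smallest error among the leading genes. Its SCR arrays read 7.34, 7.49 and 7.43 in VHL-/- cells and 7.36, 7.49 and 7.43 in VHL+/+ cells. The 12 shRNA arrays lay between 8.37 and 8.73, apart from the SCR arrays and in a band that hardly differed with the background. Its differences were 1.12, 1.18, 1.21 and 1.08 (SE 0.07). TMEM109, which encodes a membrane protein of the endoplasmic reticulum and nuclear envelope, read 8.39, 8.41 and 8.39 on the SCR arrays of VHL-/- cells, 9.77, 9.82 and 9.58 with PBRM1 shRNA and 9.45, 9.17 and 9.77 with KDM5C shRNA. In VHL+/+ cells the values were 8.48, 8.89 and 8.31, then 9.71, 9.83 and 9.28, then 9.78, 9.54 and 9.50. The SCR arrays of VHL+/+ cells were less tight than those of VHL-/- cells, and the groups did not overlap. The differences of TMEM109 were 1.33, 1.07, 1.04 and 1.04 (SE 0.16). KTELC1, now named POGLUT1, encodes a glucosyltransferase of the endoplasmic reticulum that modifies Notch receptors. It read 7.87, 7.87 and 7.73 with SCR, 8.96 on all 3 arrays with PBRM1 shRNA and 9.32, 9.03 and 8.94 with KDM5C shRNA in VHL-/- cells. In VHL+/+ cells the SCR arrays read 7.75, 7.98 and 7.81, against 8.98, 9.01 and 8.82 with PBRM1 shRNA and 8.87, 8.93 and 8.88 with KDM5C shRNA. The shRNA arrays of KTELC1 stood clear of the SCR arrays in both backgrounds, and its differences were 1.14, 1.27, 1.08 and 1.04 (SE 0.08).

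**Figure D2:**
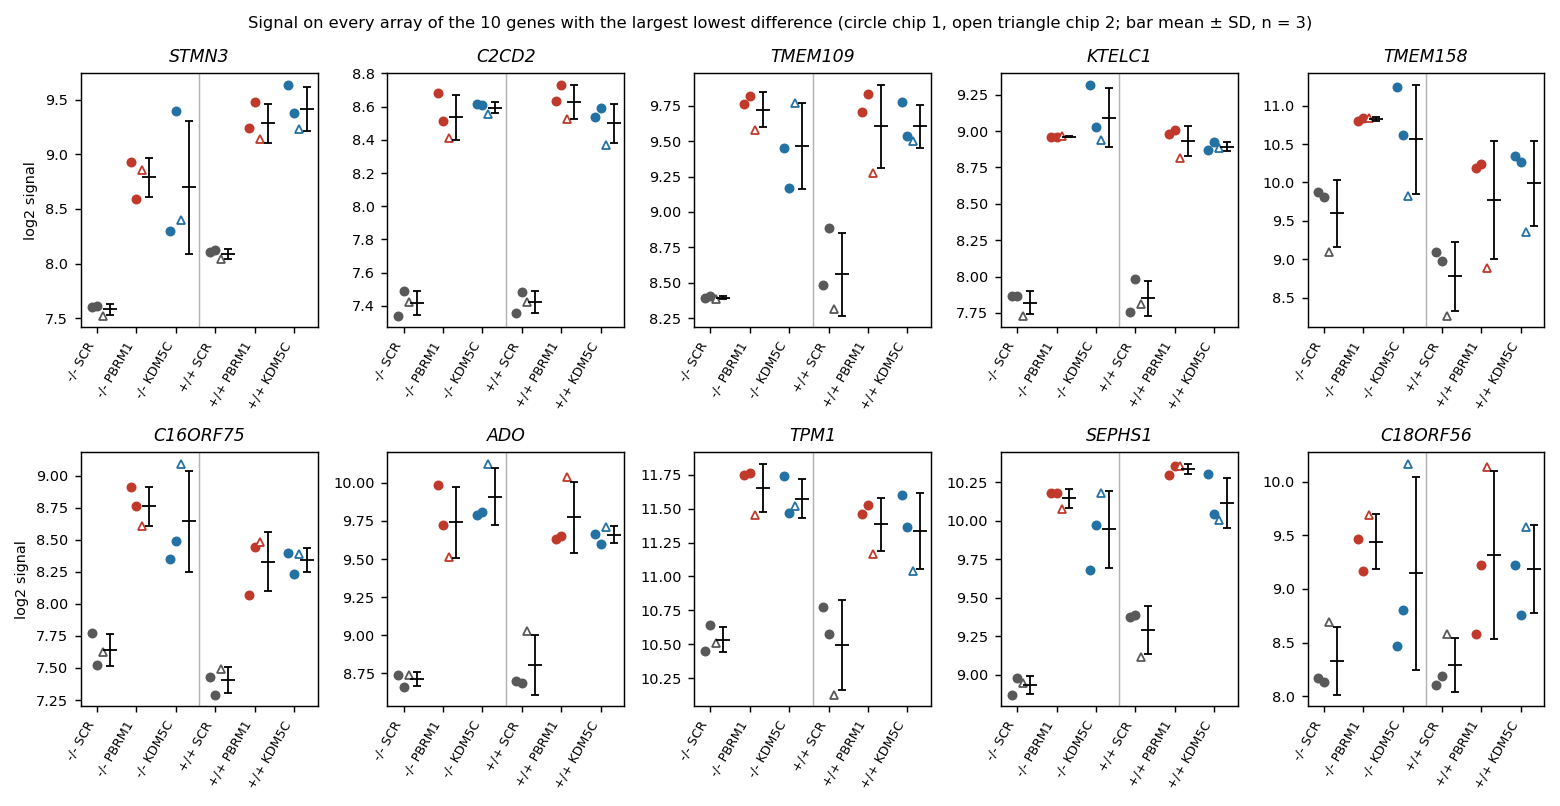
Log2 signal on each of the 18 arrays (vertical) of the 10 genes whose lowest difference is largest, by group (horizontal, VHL-/- left and VHL+/+ right); filled circles are chip 1, open triangles chip 2, and bars the mean and SD of 3 arrays. The shRNA arrays lie above the SCR arrays of their background except for single arrays of TMEM158 and C18ORF56, whose chip 2 arrays are shifted by -0.82 and 0.78.

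The next 6 genes had a lowest difference of 0.82 to 0.96. C16ORF75, now RMI2, encodes a subunit of the complex in which the BLM helicase dissolves recombination intermediates. Its SCR arrays read 7.77, 7.52 and 7.62 in VHL-/- cells and 7.43, 7.29 and 7.49 in VHL+/+ cells, and its lowest shRNA arrays read 8.35 and 8.07. Its differences were 1.12, 1.00, 0.93 and 0.94 (SE 0.15). ADO is a thiol dioxygenase, an oxygen-dependent enzyme that oxidises cysteamine and protein N-terminal cysteine. It read 8.74, 8.66 and 8.74 with SCR in VHL-/- cells and 8.70, 8.68 and 9.03 with SCR in VHL+/+ cells. All of its shRNA arrays read at least 9.52, and its differences were 1.03, 1.20, 0.97 and 0.86 (SE 0.12). SEPHS1 belongs to the selenophosphate synthetase family. Its SCR arrays read 8.87, 8.98 and 8.94 in VHL-/- cells and 9.37, 9.39 and 9.11 in VHL+/+ cells, below lowest shRNA arrays of 9.68 and 10.00. The differences of SEPHS1 were 1.21, 1.01, 1.04 and 0.82 (SE 0.11).

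TMEM158 and C18ORF56 had large differences and overlapping arrays, and both also differed between the chips. TMEM158 encodes a membrane protein known as a gene induced during Ras-driven senescence. In VHL-/- cells it read 9.88, 9.82 and 9.09 with SCR, 10.80, 10.85 and 10.84 with PBRM1 shRNA and 11.24, 10.62 and 9.82 with KDM5C shRNA. The value of 9.82 for KDM5C shRNA on chip 2 lay below 1 SCR array of chip 1 and 0.73 above the SCR array of its own chip. In VHL+/+ cells it read 9.09, 8.98 and 8.26 with SCR, 10.19, 10.24 and 8.88 with PBRM1 shRNA and 10.35, 10.26 and 9.35 with KDM5C shRNA. The differences of TMEM158 were 1.23, 0.96, 0.99 and 1.21 (SE 0.20), and its chip 2 values were lower by -0.82 on the log2 scale (adjusted p 2.03e-04, limma). C18ORF56, now TYMSOS, is a long non-coding RNA gene that lies opposite the thymidylate synthase gene, and with gene names alone signal from the opposite strand cannot be told apart. It read 8.16, 8.13 and 8.69 with SCR, 9.47, 9.17 and 9.69 with PBRM1 shRNA and 8.47, 8.80 and 10.17 with KDM5C shRNA in VHL-/- cells. In VHL+/+ cells it read 8.10, 8.19 and 8.58, then 8.58, 9.23 and 10.14, then 9.23, 8.76 and 9.58. Replicate 3, the chip 2 array, was the highest of every group, by 0.78 in the fit (adjusted p 7.65e-04, limma). The differences of C18ORF56 were 1.12, 0.82, 1.03 and 0.90 (SE 0.23), the widest error of the 10 leading genes.

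By known role, 7 of the 44 genes act on microtubules or actin: STMN3, STMN1, DPYSL2, TPM1, IQGAP1, MARCKSL1 and EFHD2. TPM1, a tropomyosin that coats actin filaments, read 10.45, 10.64 and 10.51 with SCR in VHL-/- cells and 10.78, 10.57 and 10.13 with SCR in VHL+/+ cells. With the shRNAs it read from 11.45 to 11.76 and from 11.04 to 11.60, so that its arrays were apart in both backgrounds. The differences of TPM1 were 1.12, 1.04, 0.89 and 0.84 (SE 0.11). STMN1, the founding stathmin, read 7.45, 7.63 and 7.32 with SCR and from 8.27 to 8.60 with the shRNAs in VHL-/- cells, and 7.63, 7.70 and 7.36 with SCR and from 8.19 to 8.41 with the shRNAs in VHL+/+ cells. Its differences were 1.06, 0.91, 0.74 and 0.82 (SE 0.10). Of the 4 genes of the stathmin family, 2 had a row, and both were among the 44. IQGAP1 is a scaffold protein that binds actin. In VHL-/- cells it read 8.58, 8.54 and 8.43 with SCR, 9.52, 9.87 and 9.49 with PBRM1 shRNA and 9.98, 9.89 and 9.69 with KDM5C shRNA. In VHL+/+ cells it read 8.76, 8.46 and 8.24, then 9.18, 9.31 and 9.30, then 9.32, 9.53 and 9.21. The SCR values of both backgrounds overlapped, whereas the VHL-/- shRNA arrays, except replicates 1 and 3 of PBRM1 shRNA, were above every VHL+/+ shRNA array. The differences of IQGAP1 were 1.11, 1.34, 0.78 and 0.86 (SE 0.11). Its paralog IQGAP3, the other gene of the family with a row, differed from SCR by -0.03, -0.05, 0.05 and 0.09, at a mean log2 signal of 7.01 (percentile 30.5), and whether background hides a difference at that level was not tested. DPYSL2, also called CRMP2, promotes microtubule assembly by carrying tubulin, EFHD2 is a calcium-binding protein of actin structures and MARCKSL1 is a substrate of protein kinase C that links membrane and actin. Their 4 differences ranged from 0.62 to 0.67 for DPYSL2, from 0.61 to 0.96 for EFHD2 and from 0.61 to 0.70 for MARCKSL1.

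The promoters of STMN3 and STMN1, the paralogs that were both in the group, and of TMEM158, the member with the widest chip difference and a VHL difference, are printed to show the sequence that such shared behaviour can be set against. Each runs 5′ to 3′ on the strand of the gene (minus for all 3) from 250 bases before to 50 after the RefSeq gene start in GRCh38.p14, 300 bases in all. Capitals mark the GC box GGGCGG, read on either strand as GGGCGG or CCGCCC, and the E-box CACGTG, with overlapping matches run together. They lie at chr20:63652717-63653016 (STMN3), chr1:25906370-25906669 (STMN1) and chr3:45226238-45226537 (TMEM158).
STMN3: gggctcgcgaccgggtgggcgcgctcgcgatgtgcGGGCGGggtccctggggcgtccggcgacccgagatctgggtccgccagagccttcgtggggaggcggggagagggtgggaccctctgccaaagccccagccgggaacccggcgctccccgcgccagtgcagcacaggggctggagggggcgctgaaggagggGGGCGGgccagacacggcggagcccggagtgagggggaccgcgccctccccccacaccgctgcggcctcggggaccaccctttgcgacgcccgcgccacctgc
STMN1: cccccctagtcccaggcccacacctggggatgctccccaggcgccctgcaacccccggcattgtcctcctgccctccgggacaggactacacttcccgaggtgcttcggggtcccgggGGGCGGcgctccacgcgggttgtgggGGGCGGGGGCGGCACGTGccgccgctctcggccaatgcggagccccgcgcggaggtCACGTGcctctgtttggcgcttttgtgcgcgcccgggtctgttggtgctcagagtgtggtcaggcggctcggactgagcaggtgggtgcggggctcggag
TMEM158: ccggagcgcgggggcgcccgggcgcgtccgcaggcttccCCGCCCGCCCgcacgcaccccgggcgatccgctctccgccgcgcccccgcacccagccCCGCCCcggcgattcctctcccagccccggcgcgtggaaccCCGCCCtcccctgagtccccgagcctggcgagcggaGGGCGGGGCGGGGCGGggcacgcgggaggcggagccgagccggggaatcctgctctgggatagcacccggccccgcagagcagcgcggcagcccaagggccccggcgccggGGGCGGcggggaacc
STMN3 held 2 GC boxes, STMN1 held 3 and an additional pair of E-boxes, and TMEM158 held 8 GC boxes.

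RefSeq promoters were at hand for 40 of the 44 genes, and not for RMI2, AKR1B10, DPYSL2 and RNY4. The GC box was present in 33 of the 40 (82.5%), in 68.1% of the promoters of 8533 measured protein-coding genes and in 58.5% of those of 15843 protein-coding genes. Median GC content was 69.7% for the members, 65% for measured genes and 62.7% for all protein-coding genes. The TATA box TATAAA was found in 0 of the 40, in 6.36% of measured promoters and in 9.63% of all. The other patterns, each searched on both strands, were the CCAAT box CCAAT in 17 (42.5% against 37% of measured promoters), the hypoxia response core ACGTG in 11 (27.5% against 26.3%), the antioxidant response core TGACNNNGC in 10 (25% against 15.2%), the E-box CACGTG in 7 (17.5% against 10%) and the interferon response core GAAANNGAA in 4 (10% against 6.56%). The cAMP response element TGACGTCA and the AP-1 site TGANTCA were in 1 promoter each (2.5% against 3.18% and 4.80%), SLC31A1 and PIR. Every E-box also contains ACGTG, so these counts overlap. The 40 promoters included those of the non-coding genes DANCR and TYMSOS, whereas both comparison sets held protein-coding genes only. The 44 genes were also bright, at a median signal percentile of 79.1, and the comparison sets were not matched for signal. A match of letters says nothing on whether a factor bound there. The genes were scattered over the genome, and the members nearest to each other were RAB22A and STX16 with 2 protein-coding genes between them, PIR and AP1S2 with 5, and ARL6IP6 and ACVR1 with 9.

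Another 8 genes act in the secretory and endosomal pathway, among them KTELC1, described above. TMX3 is a thiol oxidoreductase of the endoplasmic reticulum, TMED5 a p24 cargo receptor, CPD a carboxypeptidase of the trans-Golgi network, AP1S2 a small subunit of the clathrin adaptor AP-1, STX16 a SNARE of the trans-Golgi, RAB22A an early endosome GTPase and COMMD8 a member of a family tied to endosomal sorting. COMMD8 read 8.32, 8.54 and 8.45 with SCR in VHL-/- cells and 8.71, 8.74 and 8.55 with SCR in VHL+/+ cells, below all of its shRNA arrays, the lowest of which were 9.02 and 9.44. Its differences were 0.97, 0.82, 0.89 and 0.82 (SE 0.10). CPD had a difference of 0.94 and 1.02 in VHL-/- cells and of 0.97 and 0.78 in VHL+/+ cells (SE 0.12), and its arrays were apart in both. RAB22A differed by 0.99, 0.74, 0.82 and 0.74 (SE 0.10), TMX3 by 0.90, 0.83, 1.07 and 0.81 (SE 0.13), STX16 by 0.70, 0.82, 0.80 and 0.81 (SE 0.14) and AP1S2 by 0.83, 0.82, 0.72 and 0.76 (SE 0.14). All of these had arrays apart in both backgrounds. For the secretory and endosomal genes as a whole the differences ranged from 0.62, for TMED5 with KDM5C shRNA in VHL+/+ cells, to 1.27, for KTELC1 with KDM5C shRNA in VHL-/- cells.

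Of the 8 genes of DNA repair, transcription and RNA, PARP1 senses DNA breaks, RPA1 binds single-stranded DNA, POLR2C is a subunit of RNA polymerase II, EAF1 is a partner of the elongation factor ELL, SERTAD2 is a coregulator tied to E2F, E2F2 is a cell cycle transcription factor and DDX39 (now DDX39A) is a helicase of mRNA export. POLR2C read 8.22, 8.31 and 8.05 with SCR and 8.80 to 9.33 with the shRNAs in VHL-/- cells, with differences of 1.02, 0.81, 0.95 and 0.81 (SE 0.13). PARP1 read 10.70, 10.40 and 10.27 with SCR and 11.00 to 11.68 with the shRNAs in VHL-/- cells, and its differences were 0.89, 0.82, 0.85 and 0.74 (SE 0.13). The arrays of both genes were apart in both backgrounds. RPA1 was apart by a very narrow margin: with KDM5C shRNA in VHL-/- cells it read 10.13, 10.81 and 10.88, and the highest SCR array also read 10.13. SERTAD2 differed by 0.81, 0.96, 0.65 and 0.70 (SE 0.11), EAF1 by 0.65, 0.82, 0.75 and 0.66 (SE 0.10) and DDX39 by 0.75, 0.81, 0.61 and 0.64 (SE 0.10). Over the 8 genes of this role the differences ranged from 0.585, for E2F2 with PBRM1 shRNA in VHL-/- cells, to 1.12, for C16ORF75 in the same comparison. E2F2 was the last gene inside the threshold. The lowest differences of the members just inside were 0.586 (ARL6IP6), 0.585 (RNY4) and 0.585 (E2F2), and those of the genes just outside were 0.579 (HIRIP3), 0.578 (RB1) and 0.577 (CTDSPL2). The 4 differences were 0.59, 0.63, 0.76 and 0.75 for ARL6IP6 and 0.58, 0.65, 0.69 and 0.89 for E2F2. Just outside they were 0.59, 0.75, 0.58 and 0.74 for HIRIP3, 0.70, 0.58, 0.69 and 0.61 for RB1 and 0.70, 0.70, 0.64 and 0.58 for CTDSPL2. A further 22 genes, these 3 among them, reached the threshold in exactly 3 of the 4 comparisons. In a list of proliferation genes 0 of 29 measured genes met the rule, against 0.396% of all genes, too few to read anything from, and the list medians were 0.22, 0.23, 0.12 and 0.15 on the log2 scale.

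Another 8 genes belong to metabolism, redox chemistry and transport. Besides ADO and SEPHS1 these were SPHK2, which makes sphingosine 1-phosphate, AKR1B10, an aldo-keto reductase, SLC31A1, the copper importer CTR1, OAT, the mitochondrial ornithine aminotransferase, SRD5A1, a steroid 5-alpha-reductase, and PIR, an iron-binding nuclear protein. SLC31A1 read 8.80, 8.96 and 8.68 with SCR in VHL-/- cells and 9.15, 9.04 and 8.91 with SCR in VHL+/+ cells. Its shRNA arrays read from 9.61 to 10.22 and from 9.45 to 10.35, all above SCR, and its differences were 1.05, 1.11, 0.87 and 0.67 (SE 0.13). SPHK2 showed differences of 0.80, 0.81, 0.86 and 0.92 (SE 0.11), the larger pair in VHL+/+ cells. OAT differed by 0.85, 0.66, 0.62 and 0.70 (SE 0.11), SRD5A1 by 0.75, 0.61, 0.61 and 0.81 (SE 0.11) and PIR by 0.62, 0.60, 0.83 and 0.70 (SE 0.13). The differences of the 8 metabolic genes lay between 0.60, for PIR, and 1.21, for SEPHS1. AKR1B10 was the 1 gene that met the rule among 20 measured genes of a list of NRF2 targets, whose medians were between -0.01 and 0.02.

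The remaining 13 genes had other roles. Signalling and protein modification held TMEM158, the BMP receptor ACVR1, the ubiquitin ligase substrate receptor FEM1A and PPPDE1 (now DESI2), of the desumoylating peptidase family. FEM1A differed by 0.92, 0.71, 0.94 and 0.98 (SE 0.11), ACVR1 by 0.80, 0.74, 0.81 and 0.61 (SE 0.16) and PPPDE1 by 0.85, 0.68, 0.74 and 0.69 (SE 0.16). Beside C18ORF56, the group included KIAA0114 (now DANCR), a long non-coding RNA, RPS23, a protein of the small ribosomal subunit, and RNY4, a Y RNA. KIAA0114 differed by 0.78, 0.68, 0.68 and 0.65 (SE 0.19), and its replicate 1 with PBRM1 shRNA in VHL+/+ cells read 8.60, below the SCR array at 8.62. RPS23 and RNY4 have many near-identical copies in the genome, and which copies the probes match was not known here, so their values are uncertain as to gene. RNY4 read 6.99, 7.07 and 7.04 with SCR and 7.87 to 8.49 with the shRNAs in VHL-/- cells, and 6.79, 6.80 and 7.02 with SCR and 7.36 to 7.65 with the shRNAs in VHL+/+ cells. The differences of RNY4, 1.12, 1.08, 0.71 and 0.59 (SE 0.14), were the most uneven between the backgrounds. Its SCR arrays in VHL+/+ cells read near the mean signal of COL1A1 (6.81, percentile 17.8), and whether background affects this unevenness was not tested. C2CD2 and TMEM109 are described above. PTTG1IP, which binds securin, TMEM141 and ARL6IP6 are membrane or nuclear proteins of less settled role, with differences between 0.59 and 0.76.

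The differences in VHL-/- and VHL+/+ cells are set side by side here without a test, since these values chose the genes. With PBRM1 shRNA 31 of the 44 genes had the larger difference in VHL-/- cells, and with KDM5C shRNA 30 did, with medians of VHL-/- minus VHL+/+ of 0.08 and 0.05 on the log2 scale. For a single gene the SE of this gap ran from 0.10 (C2CD2) to 0.32 (C18ORF56). No SE was computed for the medians over the genes, which all share the same SCR arrays. For 18 genes both VHL-/- differences exceeded both VHL+/+ differences, among them IQGAP1, STMN1, TPM1, ADO, SLC31A1, RPS23 and RNY4. For 6 genes, SPHK2, FEM1A, EFHD2, PIR, ARL6IP6 and E2F2, both VHL+/+ differences were the larger. The extremes were RNY4, higher in VHL-/- cells by 0.41 with PBRM1 shRNA and 0.49 with KDM5C shRNA (SE 0.20), PIR, at -0.21 with PBRM1 shRNA, and EFHD2, at -0.35 with KDM5C shRNA.

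**Figure D3:**
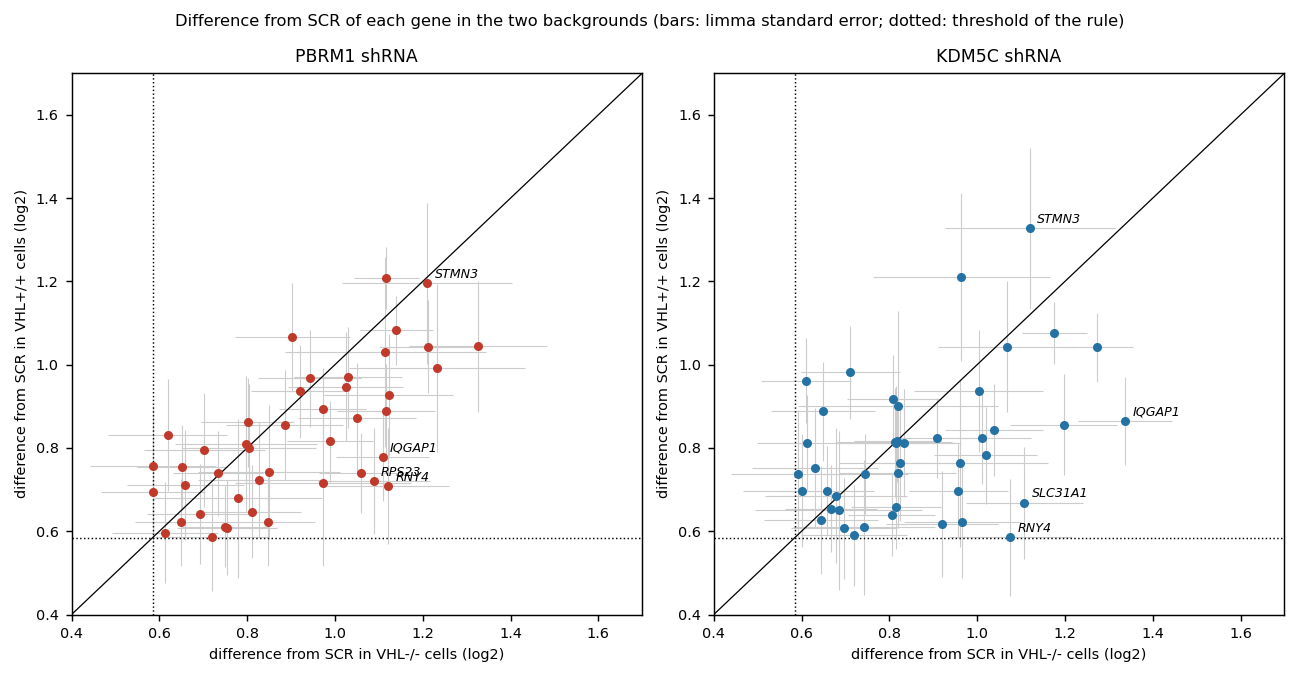
Difference from SCR (log2) of the 44 genes in VHL-/- cells (horizontal) and VHL+/+ cells (vertical), for PBRM1 shRNA and KDM5C shRNA; the line marks equal values and the dotted lines the threshold of 0.585 that every gene exceeds by selection. Points under the line, 31 with PBRM1 shRNA and 30 with KDM5C shRNA, are genes with the larger difference in VHL-/- cells.

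Between the shRNAs, PBRM1 shRNA gave the larger value for 27 of the 44 genes in VHL-/- cells and for 26 in VHL+/+ cells. The values were within 0.2 of each other for 35 genes in VHL-/- cells and 37 in VHL+/+ cells. The widest gaps, PBRM1 shRNA minus KDM5C shRNA, were -0.31 (TMED5) and 0.30 (C18ORF56) in VHL-/- cells and -0.22 (EFHD2) and 0.25 (TMX3) in VHL+/+ cells. Since both shRNAs were set against the same SCR arrays and the genes had to be high with both, this closeness is not a finding.

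The effect of VHL itself, averaged over the 3 shRNA groups, does not use the differences that chose the genes and was put to a limma test over the 18 arrays, with p-values adjusted over 13141 genes. At an adjusted p under 0.05 and a fold of at least 1.5, 3 of the 44 genes were called: DPYSL2 and TMEM158 were lower in VHL+/+ cells and AKR1B10 was higher. The members called lower were 4.55% of 44 against 0.586% of all genes, and the 1 called higher was 2.27% against 0.342%, counts too small to read as a feature of the group. DPYSL2 read 9.40, 9.53 and 9.61 with SCR, 10.28, 10.09 and 10.12 with PBRM1 shRNA and 9.98, 10.06 and 10.50 with KDM5C shRNA in VHL-/- cells. In VHL+/+ cells it read 8.38, 8.38 and 8.61, then 8.95, 9.05 and 9.23, then 9.25, 8.93 and 9.15. All 9 VHL+/+ arrays were below all 9 VHL-/- arrays, so that with either shRNA DPYSL2 in VHL+/+ cells did not reach its SCR values in VHL-/- cells. The VHL difference of DPYSL2 was -1.07 (SE 0.06, adjusted p 8.13e-09, limma), a signal ratio of 0.476, and was -1.06, -1.08 and -1.07 within the SCR, PBRM1 shRNA and KDM5C shRNA groups (SE 0.10).

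TMEM158 was lower in VHL+/+ cells by -0.82 (SE 0.12, adjusted p 1.88e-04, limma), a signal ratio of 0.568. Within the shRNA groups the VHL difference of TMEM158 was -0.82 with SCR, -1.06 with PBRM1 shRNA and -0.57 with KDM5C shRNA (SE 0.20). Its VHL difference was the size of its chip difference, but each chip held every group. AKR1B10 read 7.71, 8.08 and 8.32 with SCR, 9.05, 9.34 and 8.64 with PBRM1 shRNA and 8.99, 9.22 and 8.78 with KDM5C shRNA in VHL-/- cells. In VHL+/+ cells it read 8.83, 8.67 and 9.10, then 9.23, 9.70 and 9.82, then 9.75, 9.35 and 9.79. The SCR arrays of the backgrounds were apart, while the shRNA arrays overlapped between backgrounds for PBRM1 shRNA. AKR1B10 was higher in VHL+/+ cells by 0.68 (SE 0.12, adjusted p 8.90e-04, limma), a fold of 1.60, and by 0.83, 0.58 and 0.63 within the groups (SE 0.20). On the arrays of chip 1 alone its difference was 0.52 (adjusted p 0.00978, limma), under the fold threshold.

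At the adjusted p alone, 5 of the 44 genes (11.4%) were higher in VHL+/+ cells, against 6.03% of all genes, and 8 (18.2%) were lower, against 6.17%. Besides AKR1B10, the higher genes were STMN3 (0.57, SE 0.11, adjusted p 0.00259, limma), SEPHS1, COMMD8 and RPS23, each by 0.20 to 0.33. Besides DPYSL2 and TMEM158, the lower genes were C16ORF75, IQGAP1, EFHD2, TMEM141, ARL6IP6 and RNY4, from -0.46 for RNY4 to -0.28 for ARL6IP6. The other 31 genes did not pass, with values from -0.20 (SERTAD2) to 0.28 (KIAA0114). The median VHL difference was -0.04 for the 44 genes and 0.003 for all genes. The stathmins thus parted here: STMN1, with a VHL difference of -0.04 (SE 0.06, adjusted p 0.756, limma), did not pass, and the gap between the genes was not tested.

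**Figure D4:**
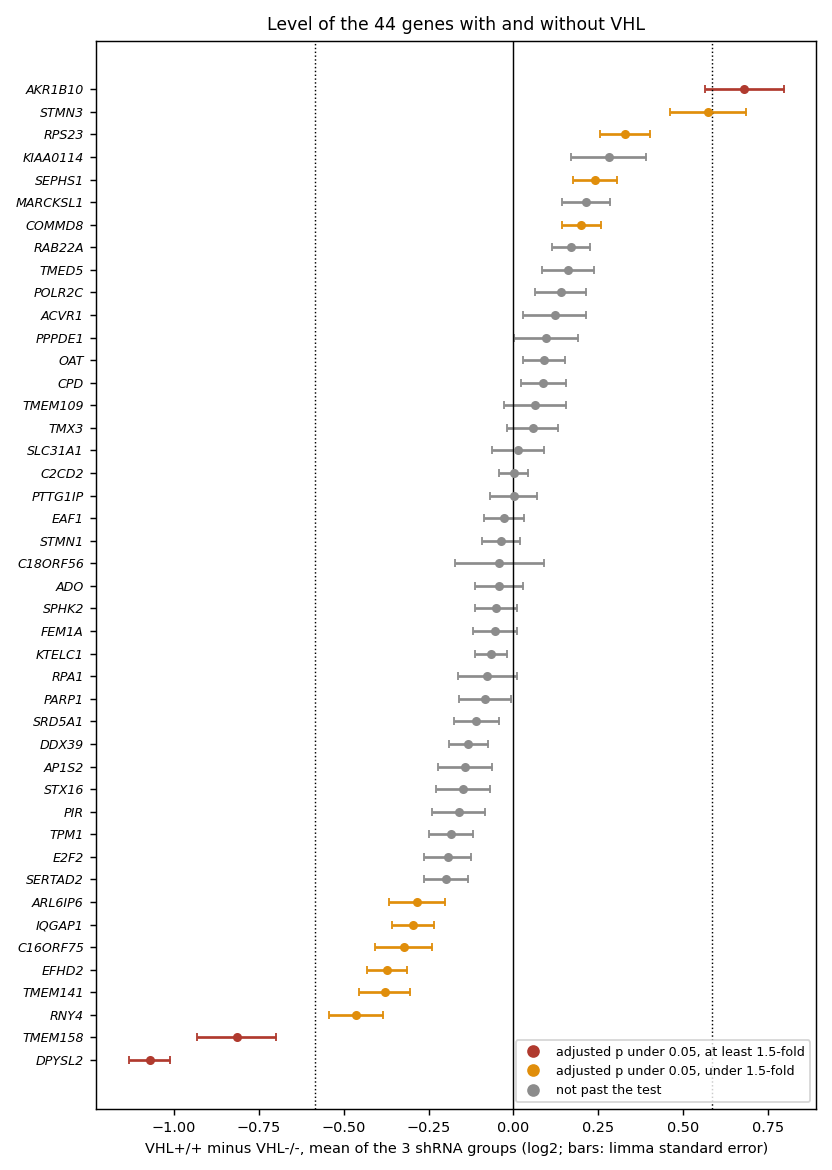
VHL+/+ minus VHL-/- (log2, mean of the 3 shRNA groups, bars the limma SE) for the 44 genes, sorted; red points pass the adjusted p and the 1.5-fold threshold (dotted lines), orange points the adjusted p alone and grey points neither. DPYSL2 at -1.07 and TMEM158 at -0.82 stand at the low end and AKR1B10 at 0.68 at the high end, and the other genes lie between -0.46 and 0.57.

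The chips were tested in the same fit, and 14 of the 44 genes (31.8%, against 23.8% of all genes) differed between them, 5 higher and 9 lower on chip 2, from -0.82 for TMEM158 to 0.78 for C18ORF56. TMEM141 (0.75) and MARCKSL1 (0.46) were also among the higher and DDX39 (-0.46) among the lower, and the overlaps of arrays named above for TMEM141 and DDX39 were gone once the chip effect was removed. Because each chip held all 6 groups, the 4 comparisons could be made within each. On chip 1 alone, with 2 arrays a group, 27 of the 44 genes reached the threshold in all 4 comparisons, on chip 2 alone, with 1 array a group, 31 did, and 20 did on both. All 44 were above 0 in all 4 comparisons on each chip, the lowest values being 0.37 (RPA1, chip 1) and 0.24 (MARCKSL1, chip 2). The 6 genes that reached the threshold in all 4 on neither chip alone were PPPDE1, DPYSL2, SRD5A1, PIR, PTTG1IP and TMEM141. These values still come from the arrays that chose the genes.

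A count in which genes were chosen on 1 chip and followed on the other was therefore added after the data were seen. Of the 13133 genes without the 8 named, 31 met the rule on chip 1 alone, 27 of them among the 44. On the chip 2 arrays 20 of these 31 reached the threshold in all 4 comparisons, against 0.274% of all genes (36 genes), and 31 of 31 were above 0 in all 4, against 17.6%. Among the 11 that fell short on chip 2 were AKR1B10, MARCKSL1, RNY4, RPS23, SERTAD2, SLC31A1 and STX16. Choosing on chip 2 gave 36 genes, of which 20 reached the threshold on chip 1 (0.236% of all genes) and 36 were above 0 (18.5%). Arrays of both chips carried the same 6 labelled groups, and whether they carried RNA of separate cultures is not stated. On chip 2 both shRNAs of a background were set against the same 1 SCR array. These counts cannot be taken as an independent repeat for the 44 genes, whose selection used both chips.

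**Figure D5:**
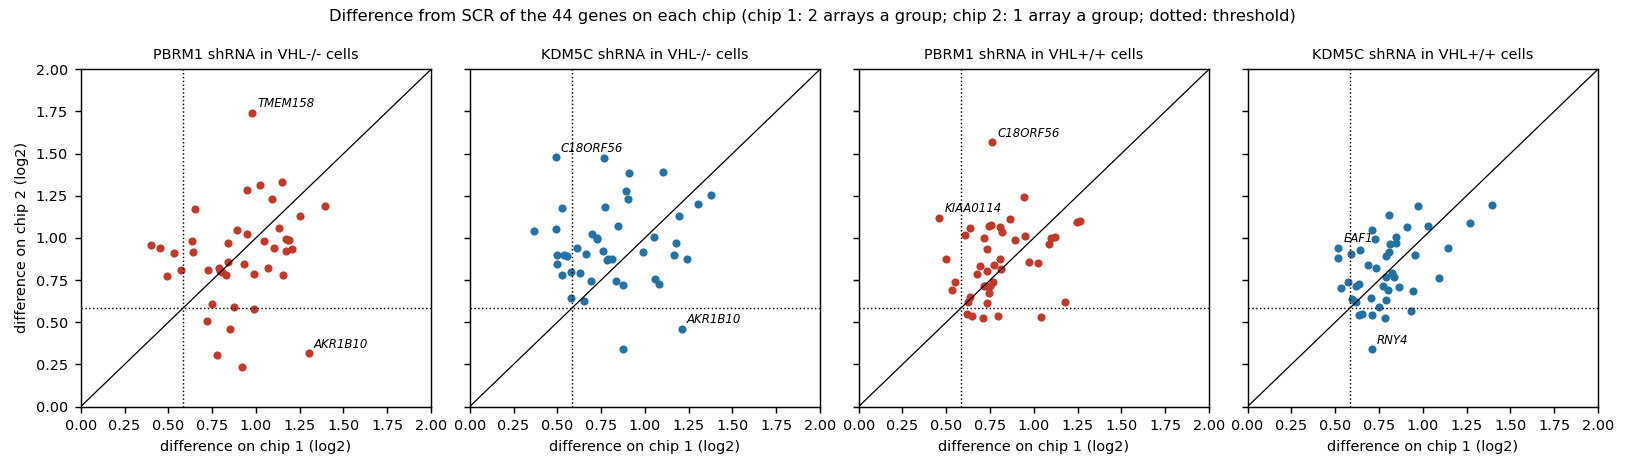
Difference from SCR (log2) of the 44 genes on chip 1 (horizontal, means of 2 arrays a group) and chip 2 (vertical, 1 array a group) in each of the 4 comparisons; the solid line marks equal values and the dotted lines the threshold of 0.585. All points lie above 0 on both axes, down to 0.37 on chip 1 and 0.24 on chip 2.

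Leaving out any single array moved the number of genes that met the rule to between 34 and 46. Of the 44 genes, 22 met it whichever array was left out, among them the 9 leading genes other than C18ORF56. The fewest, 33, were kept without replicate 3 of KDM5C shRNA in VHL-/- cells.

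Other pathway lists were set beside the rule, which 0.396% of all genes met, so that a count of 0 or 1 in a list of this size says nothing of the list. Of 25 measured HIF targets, 1 met the rule (CCND1, left out by name). In the VHL contrast 9 of the 25 were called lower, against 0.586% of all genes, with a list median of -0.43. Of 46 measured interferon-stimulated genes none met the rule, and their medians in the 4 comparisons were -0.91, -0.83, -0.40 and -0.34. In the VHL contrast 7 of the 46 were called lower and 1 higher, against 0.586% and 0.342% of all genes, with a list median of -0.20. None of 19 measured p53 targets or of 19 genes of the unfolded protein response met it either, and the medians of these lists were between -0.06 and 0.08 in the 4 comparisons. On the brightness scale of the arrays the 44 genes were mostly well above the dimmest signals, with 43 brighter than the median gene, although brightness does not compare transcript amounts between genes.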

How the data were processed

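RNA of 18 samples of 786-O cells was hybridised, 1 sample an array, to Illumina HumanHT-12 V4 BeadChips. The authors read the arrays in GenomeStudio, corrected the background to positive values with limma, took log2, quantile-normalised the arrays, retained probes detected at 0.05 and took the mean of each gene's probes. Their versions are not given in the sources used here. The deposited log2 values hold 1 row a gene and no probe names, so probes of several copies could not be set aside. Dim genes were set aside only in the alternative with a filter on brightness.

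Groups, replicates and chips were taken from the labels. Mean log2 signals of the 3 arrays of a group were subtracted, and genes with a difference from SCR of at least 0.585 (the rounded log2 of 1.5) in all 4 comparisons were kept, less the 8 named. limma 3.58.1 in R 4.3.3 was fitted to all 18 arrays with terms for the 6 groups and the chip (11 residual degrees of freedom), with empirical Bayes moderation and Benjamini-Hochberg adjustment over 13141 genes. The authors' model had a term for batch that the methods leave unspecified, for which the chip of the labels stood in. The VHL contrast averaged over the shRNA groups and the chip effect were tested. SEs of other contrasts are from the same fit. The fit was tested on simulated data. Tables were made with Python 3.11.15 and pandas 2.3.3, and figures with matplotlib 3.10.9.

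The genes, lists and tests were chosen with earlier results of these data known, and roles were assigned from general knowledge after the genes were seen. Genes named by rule are the 10 whose lowest difference is largest, those called in the VHL contrast, the 3 on either side of the threshold (by their 4 differences) and the stathmin and IQGAP genes; values of other members were added as examples after they were seen. Of the 44 symbols 38 are current and 6 are synonyms in RefSeq, which also gave promoters for 40 and the order of genes. The alternatives were other normalisations, a filter on dim genes, the median of arrays, fold thresholds of 2 or none, each chip alone, no chip term, a replicate block, trend and robust moderation, array weights and each array left out, and a selection on 1 chip counted on the other was added after the data were seen. The result of 1 gene list is not reported here. Arrays have no read depth, and their number limits the precision.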

Additional observations from a re-analysis of the deposited data

How the results depend on the processing

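No direction turned under any alternative. For the 4 differences this says little, since the same arrays chose the genes. The VHL effect was followed only for the 3 genes called. The number of genes meeting the rule was 43 with centred arrays, 39 after cyclic loess, 44 without the dimmest genes, 42 with the median of the 3 arrays (37 of them among the 44), 31 on chip 1 and 36 on chip 2. It was 4 at a fold of at least 2, and 20 when genes chosen on chip 1 were counted on chip 2, an alternative added after the data were seen. With 1 array left out it ran from 34 to 46.

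The median of the 44 genes for PBRM1 shRNA in VHL+/+ cells, 0.80, was 0.85 with the median of the 3 arrays, 0.75 on chip 1 and 0.86 on chip 2, and for KDM5C shRNA in VHL-/- cells, 0.82, it was 0.91 on chip 2. With 1 array left out the medians ran from 0.84 to 0.94 (PBRM1 shRNA, VHL-/-), 0.79 to 0.88 (KDM5C shRNA, VHL-/-), 0.77 to 0.84 (PBRM1 shRNA, VHL+/+) and 0.72 to 0.81 (KDM5C shRNA, VHL+/+).

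The 3 genes called with VHL became 1 (DPYSL2) at a fold of at least 2 and 13 at the adjusted p alone (limma). On chip 1 alone AKR1B10 fell under the fold threshold at 0.52, and STMN3 passed it. With 1 array left out 3 to 4 genes were called. The number of members that differed between the chips ran from 9 (without replicate 3 of KDM5C shRNA in VHL+/+ cells) to 16 with 1 array left out and from 13 to 18 under the other alternatives. The cause of these shifts was not tested.

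The pairing was not taken as shown, since not every pair of same-numbered samples correlated above 0.1: as deposited, correlations of their deviations ran from -0.17 to 0.47 for replicate 1, from 0.11 to 0.43 for replicate 2 and from 0.07 to 0.72 for replicate 3, which lies alone on chip 2. The medians of these correlations were 0.15, 0.28 and 0.52 as deposited, and -0.06, -0.03 and -0.25 with the chip effect removed. That removal makes the deviations of replicate 3 cancel over the groups for each gene. This tends to make its correlations negative, so the value of -0.25 says nothing of pairing. With the replicate block in place of the chip term, the same 3 genes were called with VHL and 13 members differed between the chips.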
